A study of Mus musculus with 19 samples.

Results

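Polyethylene (PE), the plastic of bags and bottles, was given by oral gavage to mice on a control diet (CD), and liver RNA was compared with that of mice gavaged with vehicle on the same diet. The comparison took in 9 of the 19 samples of the series: CD + PE (n = 5) and CD + Veh (n = 4), 1 liver library per mouse. All 9 were wild-type C57BL/6 males that entered at 8 weeks of age. Both groups ate a purified, sucrose-matched diet with 10% of energy from fat, which the labels call a chow diet. CD + PE mice received 2 mg PE per mouse per day for 8 weeks in water with 0.1% Tween 20, and CD + Veh mice received the same liquid without particles. Mice of a group were housed together, so cage and treatment cannot be told apart. The other 10 samples came from mice on a high-fat, high-fructose, high-cholesterol steatohepatitis diet (MD), with vehicle (MD + Veh, n = 5) or PE (MD + PE, n = 5). They entered the same model, and MD results are given only where the diets were compared.

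Of 55836 genes listed, 13597 passed the filter on low counts and were tested. Depth was 15391969, 13940970, 15456729 and 14787494 counts in CD + Veh replicates 1 to 4 and 12654401, 10837229, 11788019, 10701996 and 10398820 counts in CD + PE replicates 1 to 5. The CD + PE libraries were all shallower (exact two-sided permutation test, n = 4 and 5, p = 0.00794, the smallest that this design allows; adjusted p = 0.0159 over 6 library measures). Mitochondrially encoded genes took 7.4%, 9.18%, 8.88% and 8.68% of the counts in CD + Veh and 11.8%, 10.7%, 11.9%, 11.6% and 10.5% in CD + PE, again without overlap (exact permutation p = 0.00794, adjusted p = 0.0159). The share of counts from the tested processed pseudogenes was 0.204% ± 0.0045 in CD + Veh (SD, n = 4) and 0.0933% ± 0.00573 in CD + PE (SD, n = 5; exact permutation p = 0.00794, adjusted p = 0.0159). Genes with a count above 0 numbered 18275 ± 243 and 17613 ± 399.8 (exact permutation p = 0.0397, adjusted p = 0.0476), and the share of the 10 most abundant genes was 18.9% ± 1.13 and 20.1% ± 0.74 (exact permutation p = 0.111, adjusted p = 0.111). Levels of single genes are CPM, counts scaled to a common library total with TMM, and summed levels of lists are CPM by the library total alone, without TMM. Fold changes are log2 of CD + PE over CD + Veh. Adjusted p-values are from edgeR's quasi-likelihood test with Benjamini-Hochberg adjustment over all genes tested. A gene was called, and is said to have risen or fallen, at an adjusted p below 0.05 and a log2 fold change of at least 0.38 in size.

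Several libraries stood apart from their group. CD + PE replicate 1 held skeletal muscle RNA: the summed level of 17 muscle markers was 544 CPM there, against 5.33 to 14.9 CPM in the other CD + PE libraries and 6.04, 64.3, 5.31 and 5.21 CPM in CD + Veh. CD + PE replicate 2 was high for macrophage, interferon and blood genes. The macrophage receptor gene Marco was at 8.08, 3.22, 12.3 and 22.4 CPM in CD + Veh and 8.3, 256, 19.9, 6.03 and 2.57 CPM in CD + PE, and the summed level of 48 interferon-stimulated genes was 4601 CPM in that library against 1039 to 1389 CPM in the other 8. The liver label was borne out in every library by Alb, the gene of serum albumin, which hepatocytes make, at 52983, 47454, 56408 and 63092 CPM in CD + Veh and 54827, 45968, 57858, 55144 and 69169.5 CPM in CD + PE. Library numbers ran from 39 to 42 in CD + Veh and from 48 to 52 in CD + PE. 4 genes, 3 of them pseudogenes, were above 0 in every library numbered up to 45 and at 0 in every later one, a division that also runs through MD + Veh. In CD mice this division coincides with PE, and library number and PE cannot be told apart there.

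**Figure D1:**
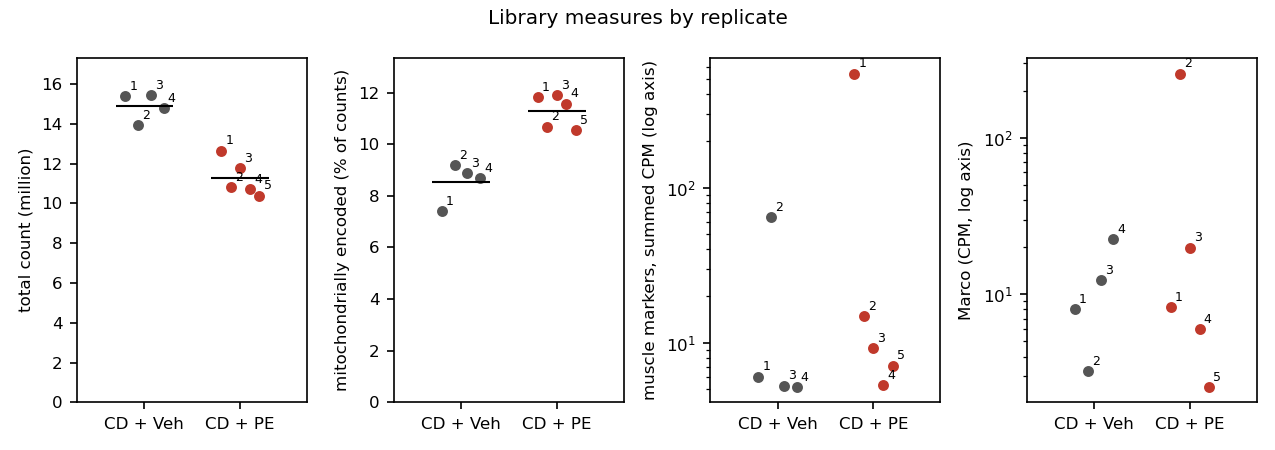
Total count, share of counts from mitochondrially encoded genes (%), summed level of 17 skeletal muscle markers and level of Marco (CPM, log axes) in each CD + Veh (grey) and CD + PE (red) library, with the replicate number beside each point and the group mean as a line on the linear axes. Depth and mitochondrial share separated the groups, CD + PE replicate 1 reached 544 CPM of muscle markers, and CD + PE replicate 2 reached 256 CPM of Marco.

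The liver makes cholesterol from acetyl-CoA through the mevalonate pathway, whose genes are switched on together by the SREBP factors when cell sterols are low. It takes up glucose and fructose, stores glucose as glycogen and breaks sugars down by glycolysis, and in the fasted state it turns to fatty acid oxidation and makes ketone bodies. Hepatocytes near the portal vein favour urea synthesis and those around the central vein favour drug metabolism, and many of these programmes vary with time of day and with the pulses of growth hormone that differ between the sexes. Lipogenesis and nuclear receptors are left aside here. In bulk liver, fewer cells of a type and less RNA per cell cannot be told apart.

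Of the 13597 genes, 397 (2.92%) were called: 166 (1.22%) rose and 231 (1.7%) fell in CD + PE. At an unadjusted p below 0.05 there were 2377 genes (17.5%), 1159 of them higher and 1218 lower. The median log2 fold change over all genes was 0.01, that of the genes that rose 0.62 and that of those that fell -0.68. In 1065 genes (7.83%) the CD + Veh and CD + PE libraries did not overlap, and 327 of the called genes were among them. The calls were sensitive to single libraries: 147 of the 397 were called whichever of the 9 CD libraries was left out, and the total fell to 235 without CD + Veh replicate 1, 215 without CD + Veh replicate 4 and 240 without CD + PE replicate 3. No called gene changed sign in these 9 fits. Without CD + PE replicates 1 and 2 together, 311 genes were called, 226 of them among the 397. With the division of library numbers as a covariate, whose effect is then estimated within MD + Veh, 37 genes were called, 28 of them among the 397. In that fit 388 of the 397 genes had the same sign, with a median fold change size of 0.62 in place of 0.65 and a median SE of 0.224 in place of 0.141.

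**Figure D2:**
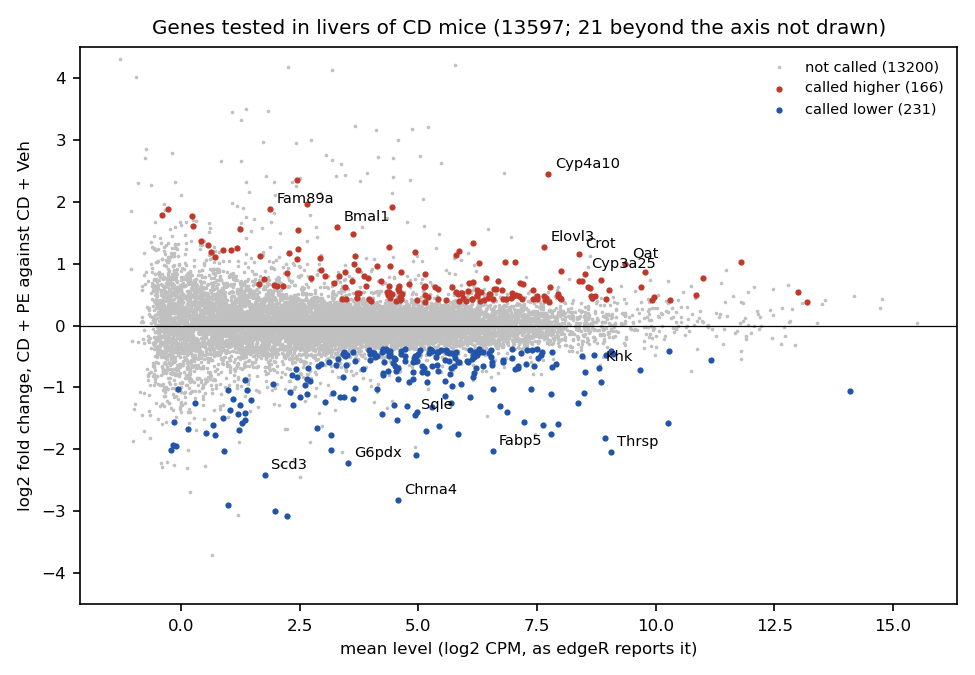
Log2 fold change of CD + PE against CD + Veh (y axis) and mean level in log2 CPM (x axis) for the genes tested, with the 166 called higher in red, the 231 called lower in blue and the rest in grey. Cyp4a10, Bmal1 and Elovl3 lie among the genes that rose, and Chrna4, G6pdx, Scd3, Thrsp and Fabp5 among those that fell. Genes beyond the y axis, Rps6-ps4 and Rpl10a-ps1 among them, are not drawn.

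The 54 gene lists examined held 1289 tested genes, of which 94 were called, where 2.92% of all genes were called. The lists were written with earlier results of these data known, so their share cannot be weighed against that of all genes. The lists with the most calls were sterol synthesis, with 10 of 20 members lower, and glycolysis and fructose use, with 9 of 27 lower. Fatty acid oxidation, the antioxidant response and pericentral hepatocyte genes had 5 members higher and 0 lower each. The urea cycle and amino acid list and cytochrome P450 families 1 to 3 had 3 higher and 3 lower each, cytosolic ribosomal proteins 2 higher and 4 lower, and the nuclear genes of the respiratory chain 1 higher and 5 lower of 77.

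**Figure D3:**
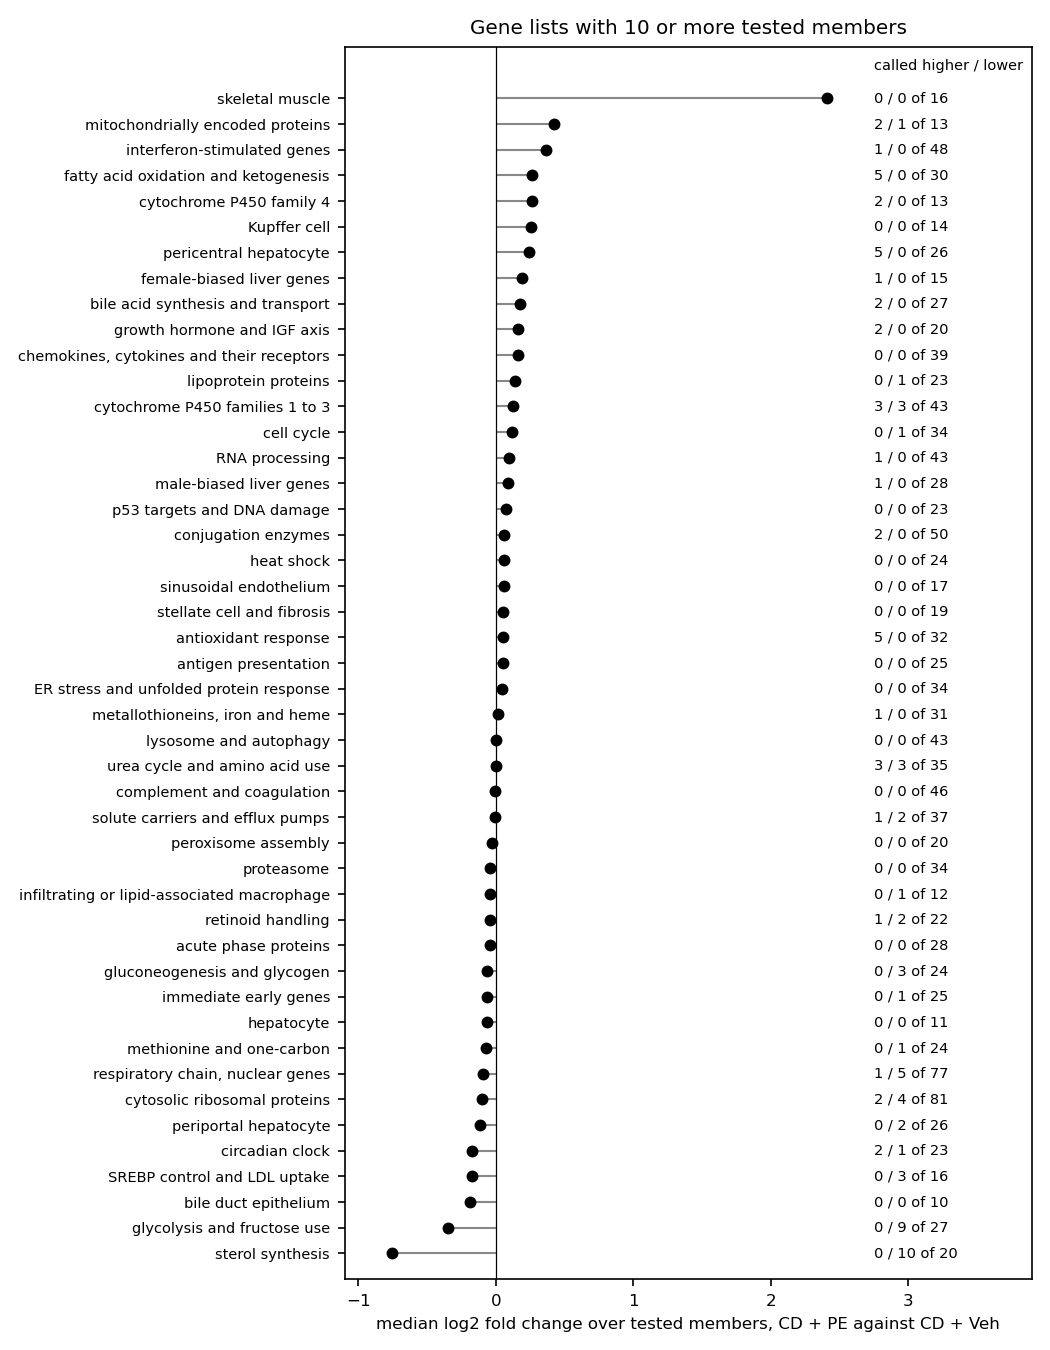
Median log2 fold change (x axis) of the tested members of each gene list with 10 or more of them (y axis), CD + PE against CD + Veh, with the numbers called higher and lower at the right. Sterol synthesis had the lowest median, -0.75, and the skeletal muscle markers the highest, 2.41, with 0 of 16 called. Without CD + PE replicates 1 and 2 the muscle median was -2.11 and that of sterol synthesis -0.75.

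Genes of cholesterol synthesis were lower in CD + PE from the first to the last steps of the pathway. All 20 members tested had a log2 fold change below 0 and 19 had an unadjusted p below 0.05, with a median of -0.75 against 0.01 for all genes. The 10 that fell included Lss, Dhcr7, Nsdhl, Pmvk, Sc5d, Fdft1, Acat2, Sqle and Fdps. The summed level of the list was 4429, 4556, 3397 and 5867 CPM in CD + Veh and 2257, 3645, 2425, 2712 and 3225 CPM in CD + PE, where only CD + PE replicate 2 reached into the CD + Veh range.

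Lss, lanosterol synthase, closes the first sterol ring system (chromosome 10, 76367298 to 76392976, GRCm39). It was at 106, 126, 94.5 and 175 CPM in CD + Veh and 37.4, 66.6, 36.5, 60.8 and 61.4 CPM in CD + PE, so that every CD + PE library was below every CD + Veh library. Lss fell by 1.26 on the log2 scale (SE 0.214, adjusted p = 0.00301). Dhcr7, the last step to cholesterol (chromosome 7, 143376740 to 143402149), was at 105, 110.1, 92.2 and 155 CPM in CD + Veh and 56.2, 74.4, 43.1, 62.1 and 58.7 CPM in CD + PE. Dhcr7 fell by 0.97 on the log2 scale (SE 0.167, adjusted p = 0.00306). In both genes CD + PE replicate 2 was the highest of its group and still below every CD + Veh library. Nsdhl, a sterol C4 demethylation enzyme, was at 63.1, 70.8, 55.4 and 95.9 CPM in CD + Veh and 35.9, 45.8, 28.6, 46 and 38.7 CPM in CD + PE. Nsdhl fell by 0.87 on the log2 scale (SE 0.168, adjusted p = 0.00692). Pmvk, phosphomevalonate kinase, was at 102, 117, 73.6 and 167 CPM in CD + Veh and 40.5, 72.4, 42, 48 and 56.8 CPM in CD + PE. Pmvk fell by 1.14 on the log2 scale (SE 0.224, adjusted p = 0.00729). These 4 genes were called whichever library was left out, and CD + PE replicates 1 and 3 were the lowest for Lss and Pmvk. Sqle, squalene epoxidase, was at 98.6, 92, 61 and 133 CPM in CD + Veh and 17.5, 66.9, 18.7, 33.9 and 39.7 CPM in CD + PE. Sqle fell by 1.45 on the log2 scale (SE 0.348, adjusted p = 0.0251). Sqle lost its call when 1 of CD + Veh replicates 1 and 4 or CD + PE replicates 1, 3 and 4 was left out (adjusted p from 0.0524 to 0.102). Fdps lost its call when 1 of CD + Veh replicates 1, 2 and 4 or CD + PE replicates 1, 3 and 4 was left out (adjusted p from 0.0593 to 0.161). Acat2 lost its call when 1 of CD + Veh replicate 4 or CD + PE replicate 3 was left out (adjusted p from 0.0505 to 0.0755). Sc5d and Fdft1 lost their calls without CD + Veh replicate 4 (adjusted p = 0.0544 and 0.0724). Sqle, Acat2 and Fdps were named with their values already known.

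The number of sterol genes called ranged from 4 to 13 over the fits that left out 1 library, and was 8 without CD + PE replicates 1 and 2. With the division of library numbers as a covariate 0 of 20 were called, with a median of -0.82 and 12 members lower at an unadjusted p below 0.05. In the genes that control the SREBP factors and LDL uptake, 3 of 16 members fell and 0 rose. Scap, the escort that carries SREBP out of the endoplasmic reticulum, was at 193, 219.8, 188 and 285 CPM in CD + Veh and 140.0, 138, 131, 144 and 152 CPM in CD + PE. Scap fell by 0.65 on the log2 scale (SE 0.11, adjusted p = 0.00286). Stard4, a cytosolic sterol carrier, was at 149, 152, 126 and 163 CPM in CD + Veh and 86, 86.6, 80.9, 118 and 97.4 CPM in CD + PE. Stard4 fell by 0.65 on the log2 scale (SE 0.142, adjusted p = 0.0141). Stard4 lost its call without CD + Veh replicate 4 (adjusted p = 0.0594).

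The promoter windows of sterol genes are shown because members of the list moved together. Windows run from 250 bases before to 50 bases after a RefSeq transcription start (GRCm38.p6), and 15 of the 20 members had one in the table. The CCAAT box, the letters bound by NF-Y, was searched on both strands and was found in 13 of the 15 (86.7%), against 37.4% of all 32851 RefSeq windows. Shares of lists use the first window of each gene, and the share of all windows counts every window of a gene, so the units differ. In other lists it was found in 12 of 18 clock genes (66.7%), 13 of 27 antioxidant genes (48.1%) and 11 of 25 genes of glycolysis and fructose use (44%). The SRE core TCACCCCA, searched likewise, was found in 1 of 15 (6.67%) against 1.56% of all windows, and the E-box CACGTG, which reads the same on both strands, in 2 of 15 (13.3%) against 7.15%. Among genes of glycolysis and fructose use, 2 of 25 windows (8%) held the E-box, near the share of all windows. Such matches describe these letters in these windows and locate no binding. The windows of Lss (chr10:76531355-76531654, + strand) and Nsdhl (chrX:72918271-72918570, + strand) are given 5′ to 3′ with CCAAT, or ATTGG where it lies on the other strand, in capitals, and that of Khk, a fructose gene described next (chr5:30921309-30921608, + strand), with the E-box in capitals.
Lss: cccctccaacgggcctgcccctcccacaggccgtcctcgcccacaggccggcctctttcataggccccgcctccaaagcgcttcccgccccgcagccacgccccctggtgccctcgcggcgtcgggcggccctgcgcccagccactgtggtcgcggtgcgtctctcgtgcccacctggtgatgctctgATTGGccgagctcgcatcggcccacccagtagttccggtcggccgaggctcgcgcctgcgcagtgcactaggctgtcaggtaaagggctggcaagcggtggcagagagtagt
Nsdhl: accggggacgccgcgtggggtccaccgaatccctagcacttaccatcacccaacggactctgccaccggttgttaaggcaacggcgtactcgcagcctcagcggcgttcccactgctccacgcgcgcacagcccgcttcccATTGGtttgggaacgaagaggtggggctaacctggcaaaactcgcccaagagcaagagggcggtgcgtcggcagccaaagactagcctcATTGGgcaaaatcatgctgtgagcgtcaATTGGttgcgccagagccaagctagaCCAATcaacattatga
Khk: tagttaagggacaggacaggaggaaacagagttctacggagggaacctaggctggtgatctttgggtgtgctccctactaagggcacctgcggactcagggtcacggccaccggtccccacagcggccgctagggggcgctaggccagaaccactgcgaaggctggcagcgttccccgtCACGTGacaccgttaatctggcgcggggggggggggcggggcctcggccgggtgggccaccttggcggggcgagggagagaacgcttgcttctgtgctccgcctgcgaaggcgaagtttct
The Lss window held 1 CCAAT box, the Nsdhl window 4 and the Khk window none.

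Genes of sugar breakdown were lower in CD + PE, along glycolysis, the fructose branch and the oxidative pentose phosphate pathway. Of 27 members tested, 9 fell and 0 rose, 16 were lower and 1 higher at an unadjusted p below 0.05, 3 had a log2 fold change above 0 and the median was -0.35. Khk, ketohexokinase, which traps fructose in the cell (chromosome 5, 31078775 to 31101479, GRCm39), was at 668, 628, 641 and 785 CPM in CD + Veh and 493, 395, 449, 354 and 434 CPM in CD + PE. Khk fell by 0.68 on the log2 scale (SE 0.116, adjusted p = 0.00301). Eno1, the glycolytic enolase, was at 538, 509.6, 541 and 640.0 CPM in CD + Veh and 410.5, 413, 396, 351 and 425 CPM in CD + PE. Eno1 fell by 0.48 on the log2 scale (SE 0.0794, adjusted p = 0.00249). Pklr, the liver pyruvate kinase, was at 918, 789, 806 and 964 CPM in CD + Veh and 552, 468, 351, 432 and 499 CPM in CD + PE. Pklr fell by 0.92 on the log2 scale (SE 0.187, adjusted p = 0.00947), and was named after its values were known. In all 3 genes each CD + PE library was below each CD + Veh library. Pklr was the 1 gene of the list still called with the division of library numbers as a covariate (log2 fold change -1.65, adjusted p = 0.00942).

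The oxidative pentose phosphate pathway, which makes NADPH, held the largest fall of the list. G6pdx, its entry enzyme, was at 32.4, 30.2, 20.5 and 55.1 CPM in CD + Veh and 5.31, 16.8, 4.68, 3.72 and 6.22 CPM in CD + PE. G6pdx fell by 2.23 on the log2 scale (SE 0.371, adjusted p = 0.00269). Pgd, the other NADPH-producing enzyme of the pathway, was at 96.3, 99.3, 76.3 and 126 CPM in CD + Veh and 48, 73.7, 41.5, 48.1 and 47.5 CPM in CD + PE. Pgd fell by 0.94 on the log2 scale (SE 0.188, adjusted p = 0.00802). CD + PE replicate 2 was the highest of its group in both genes. Pfkfb1 sets the level of a glycolytic activator, fructose 2,6-bisphosphate. Pfkfb1 fell by 0.76 on the log2 scale (SE 0.151, adjusted p = 0.00737). Gapdh fell by 0.42 on the log2 scale (SE 0.0795, adjusted p = 0.00649). Gapdh lost its call when 1 of CD + Veh replicate 4 or CD + PE replicate 4 was left out (adjusted p from 0.0202 to 0.0347, log2 fold change under 0.38 in size). Gpi1 and Tkfc were the other members that fell. Gpi1 lost its call without CD + Veh replicate 4 (adjusted p = 0.0544). Tkfc lost its call when 1 of CD + Veh replicates 1, 3 and 4 or CD + PE replicates 2, 3, 4 and 5 was left out (adjusted p from 0.0565 to 0.136). In the list of gluconeogenesis and glycogen 3 of 24 members fell and 0 rose, with a median of -0.06. Pygl, liver glycogen phosphorylase, was at 703, 644, 659 and 735 CPM in CD + Veh and 552, 525, 482, 491 and 453 CPM in CD + PE. Pygl fell by 0.45 on the log2 scale (SE 0.0839, adjusted p = 0.00526). Gbe1, the branching enzyme, and Slc37a4, the glucose-6-phosphate transporter, had log2 fold changes of -0.45 and -0.55. Gbe1 lost its call when 1 of CD + Veh replicates 1 and 4 was left out (adjusted p from 0.0799 to 0.0995). Slc37a4 lost its call when 1 of CD + Veh replicates 1 and 4 or CD + PE replicates 1 and 3 was left out (adjusted p from 0.0536 to 0.0887).

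**Figure D4:**
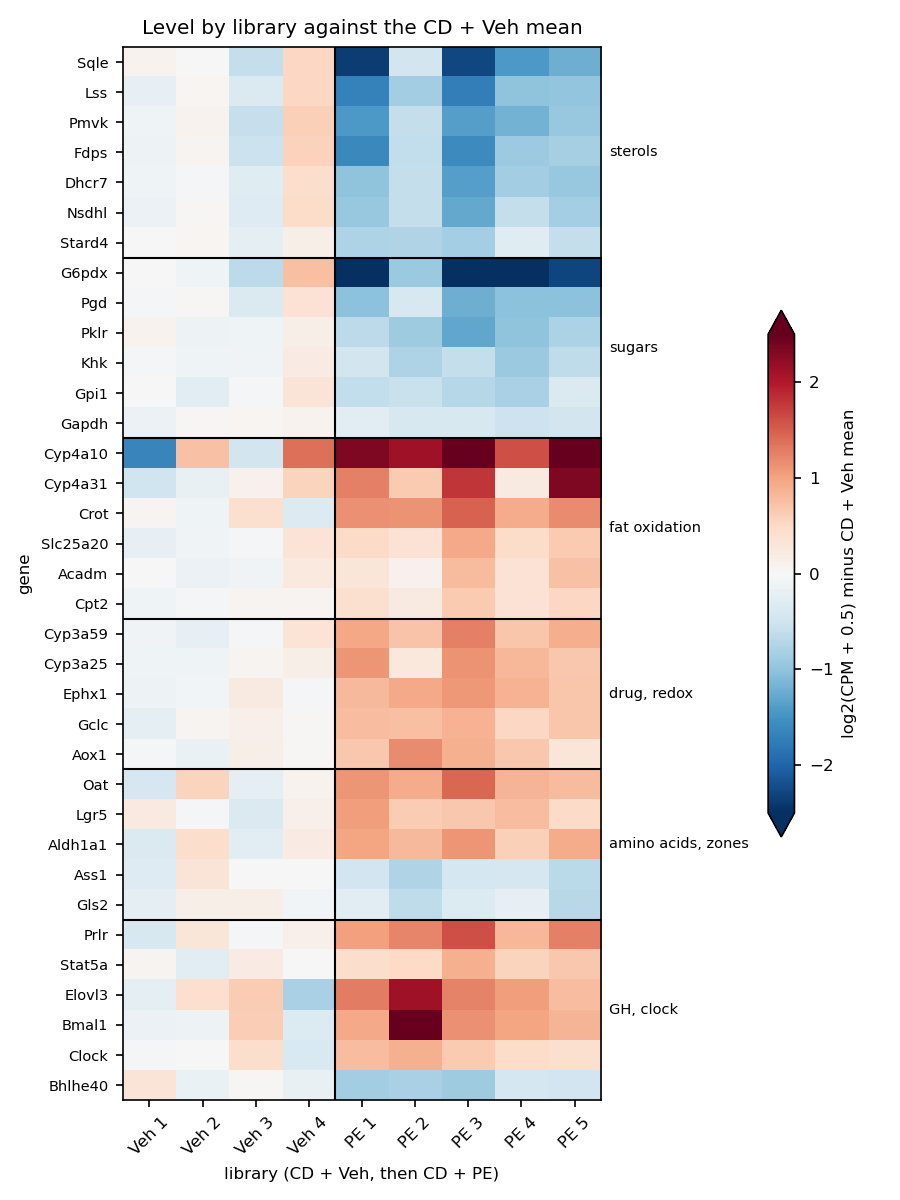
Level of 35 genes (rows, grouped by role) in each CD library (columns), as log2(CPM + 0.5) minus the CD + Veh mean of the gene, with lower levels in blue and higher levels in red. Sterol and sugar genes were lower across the 5 CD + PE libraries, Cyp4a10, Crot and Ephx1 were higher, and Bmal1 and Elovl3 were highest in CD + PE replicate 2.

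Genes of fatty acid oxidation and ketone body synthesis were higher by a small amount. All 30 members tested had a log2 fold change above 0, with a median of 0.27, but 5 were called, Slc25a20, Cpt2, Bdh1 and Acadm among them. Slc25a20, the carnitine and acylcarnitine carrier of the inner mitochondrial membrane, was at 55.9, 60.6, 61.7 and 81.6 CPM in CD + Veh and 90.0, 82.4, 125, 88.3 and 102 CPM in CD + PE. Slc25a20 rose by 0.59 on the log2 scale (SE 0.122, adjusted p = 0.0108), and it was called whichever library was left out. Cpt2 lost its call when 1 of CD + Veh replicates 1 and 2 or CD + PE replicate 3 was left out (adjusted p from 0.0523 to 0.0608). Bdh1 lost its call when 1 of CD + Veh replicates 1 and 2 or CD + PE replicate 3 was left out (adjusted p from 0.0571 to 0.0711). Acadm lost its call when 1 of CD + Veh replicates 1, 2 and 3 or CD + PE replicates 3 and 5 was left out (adjusted p from 0.0887 to 0.124). Without CD + PE replicates 1 and 2, 7 members were called higher and the median was 0.34.

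Crot, which hands medium-chain products of peroxisomal oxidation to carnitine (chromosome 5, 8985926 to 9047393), was at 169, 149.8, 213 and 128 CPM in CD + Veh and 357, 353, 451, 309.7 and 369.9 CPM in CD + PE. Crot rose by 1.16 on the log2 scale (SE 0.146, adjusted p = 0.000663). Crot was named by a rule that takes only genes whose groups do not overlap. It was also called with the division of library numbers as a covariate (log2 fold change 1.35, adjusted p = 0.0211). Among the 13 genes of cytochrome P450 family 4, the omega-hydroxylases of fatty acids, Cyp4a10 and Cyp4a31 rose and 0 fell, with a median of 0.26. Cyp4a31 was at 1.8, 2.36, 3.02 and 4.31 CPM in CD + Veh and 7.31, 4.65, 10.7, 3.31 and 15.8 CPM in CD + PE. Cyp4a31 rose by 1.54 on the log2 scale (SE 0.384, adjusted p = 0.0305). Cyp4a31 lost its call when 1 of CD + Veh replicates 1, 2 and 3 or CD + PE replicates 3 and 5 was left out (adjusted p from 0.0622 to 0.106). Cyp4a10 rose by 2.45 on the log2 scale (SE 0.562, adjusted p = 0.0191). Cyp4a10 lost its call when 1 of CD + Veh replicates 1 and 3 or CD + PE replicate 3 was left out (adjusted p from 0.0532 to 0.0584). These Cyp4a genes are near-identical copies in 1 cluster, and how reads were split between them is uncertain. Of 20 genes of peroxisome assembly 0 were called by edgeR, 5 at an unadjusted p below 0.05, and 1 by DESeq2, with a median of -0.03.

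Genes of cytochrome P450 enzymes were called in both directions, and the called genes of the antioxidant list all rose. Ephx1, the microsomal epoxide hydrolase (chromosome 1, 180803775 to 180848537), was at 107, 112, 137 and 115 CPM in CD + Veh and 207, 227, 249, 215 and 190.4 CPM in CD + PE. Ephx1 rose by 0.89 on the log2 scale (SE 0.0892, adjusted p = 8.2e-05). Gclc, the catalytic subunit of the rate-limiting enzyme of glutathione synthesis, was at 171, 208, 217 and 203 CPM in CD + Veh and 338, 337, 364, 285 and 322 CPM in CD + PE. Gclc rose by 0.72 on the log2 scale (SE 0.132, adjusted p = 0.00512). Aox1, aldehyde oxidase, was at 43.3, 39.4, 49.1 and 45.3 CPM in CD + Veh and 70.8, 101, 81.7, 70.7 and 54.7 CPM in CD + PE. Aox1 rose by 0.78 on the log2 scale (SE 0.153, adjusted p = 0.00737). The groups did not overlap in any of the 3, and Ephx1 and Gclc were also called with the division of library numbers as a covariate (adjusted p = 0.013 for each). Gss, glutathione synthetase, and Gpx1, a glutathione peroxidase, completed the 5 of 32 members that rose. Gss rose by 0.50 on the log2 scale (SE 0.12, adjusted p = 0.0241), and Gpx1 rose by 0.41 on the log2 scale (SE 0.113, adjusted p = 0.0467). Gss lost its call when 1 of CD + Veh replicates 2 and 4 or CD + PE replicates 3 and 5 was left out (adjusted p from 0.0534 to 0.0847). Gpx1 lost its call when 1 of CD + Veh replicates 1, 2 and 4 or CD + PE replicates 1, 3, 4 and 5 was left out (adjusted p from 0.0579 to 0.14). The median of the list was 0.05, and 0 members fell.

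Of 43 genes of cytochrome P450 families 1 to 3 and their electron donors, 3 rose and 3 fell, with a median of 0.12. Cyp3a25, of the family that clears many drugs, was at 193, 191, 216 and 229 CPM in CD + Veh and 442, 247, 452, 368 and 330.0 CPM in CD + PE. Cyp3a25 rose by 0.83 on the log2 scale (SE 0.152, adjusted p = 0.00512). Its neighbour Cyp3a59 rose alongside, and reads of these close copies may be shared. Cyp3a59 rose by 0.99 on the log2 scale (SE 0.194, adjusted p = 0.00729). Cyb5a, cytochrome b5, was at 473, 585, 539 and 561 CPM in CD + Veh and 915, 624, 974, 857 and 791 CPM in CD + PE. Cyb5a rose by 0.63 on the log2 scale (SE 0.122, adjusted p = 0.00716), with CD + PE replicate 2 closest to the CD + Veh libraries. Cyp2j6 was at 84.8, 77.4, 83.3 and 86.2 CPM in CD + Veh and 59.1, 57.6, 61.4, 55.6 and 46 CPM in CD + PE. Cyp2j6 fell by 0.57 on the log2 scale (SE 0.0737, adjusted p = 0.000663). Cyb5r3, the reductase of cytochrome b5, and Cyp2d40 were the other members that fell. Cyb5r3 lost its call when 1 of CD + Veh replicate 4 or CD + PE replicate 4 was left out (adjusted p from 0.0303 to 0.0577, under 0.38 in size where p was below 0.05). Cyp2d40 lost its call when 1 of CD + Veh replicates 1, 3 and 4 or CD + PE replicates 2, 3, 4 and 5 was left out (adjusted p from 0.0523 to 0.146). Among 50 conjugation enzymes, Ugt2b34 and Gsta2 rose and 0 fell, a share near the 2.92% of all genes that were called. Ugt2b34 rose by 0.48 on the log2 scale (SE 0.0996, adjusted p = 0.0109), and Gsta2 rose by 0.97 on the log2 scale (SE 0.266, adjusted p = 0.0475). Gsta2 lost its call when 1 of CD + Veh replicates 1, 2, 3 and 4 or CD + PE replicates 1, 2 and 3 was left out (adjusted p from 0.0543 to 0.141). Of 31 genes of metal, iron and heme handling, Cpox, coproporphyrinogen oxidase, was the 1 that rose, which is also near that share. Cpox rose by 0.57 on the log2 scale (SE 0.104, adjusted p = 0.00512). In bile acid synthesis and transport 2 of 27 rose, Akr1c6 and Abcb4, the canalicular phospholipid flippase. Akr1c6 rose by 0.47 on the log2 scale (SE 0.104, adjusted p = 0.0156), and Abcb4 rose by 0.43 on the log2 scale (SE 0.11, adjusted p = 0.035). Abcb4 lost its call when 1 of CD + Veh replicates 1, 2 and 4 or CD + PE replicates 3 and 5 was left out (adjusted p from 0.0608 to 0.12). With the division of library numbers as a covariate Akr1c6 was at 0.06, Ugt2b34 at 0.12 and Abcb4 at 0.47 (adjusted p = 0.889, 0.762 and 0.325). The median of the bile acid list was -0.06 in that fit and 0.18 in the main fit. Cyp7a1, the rate-limiting enzyme of bile acid synthesis, had means of 81 and 86.8 CPM (adjusted p = 0.947).

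Enzymes of amino acid use moved in both directions. Of 35 members of the urea cycle and amino acid list, Oat, Glud1 and Agxt rose and Ass1, Prodh and Gls2 fell, with a median of 0. Oat, ornithine aminotransferase, a gene of the pericentral rim (chromosome 7, 132159153 to 132191517), was at 227, 452, 261 and 325 CPM in CD + Veh and 655, 585, 829.8, 551 and 529.9 CPM in CD + PE. Oat rose by 0.99 on the log2 scale (SE 0.193, adjusted p = 0.00714). Ass1, argininosuccinate synthase of the urea cycle and a periportal gene, was at 2612, 4079.8, 3268 and 3224 CPM in CD + Veh and 2351, 1939, 2405, 2446 and 2047 CPM in CD + PE. Ass1 fell by 0.56 on the log2 scale (SE 0.128, adjusted p = 0.0191). Ass1 lost its call without CD + Veh replicate 2 (adjusted p = 0.0759). Glud1, glutamate dehydrogenase, was at 671, 769, 764 and 801 CPM in CD + Veh and 969, 998, 991, 996 and 1037 CPM in CD + PE. Glud1 rose by 0.41 on the log2 scale (SE 0.0831, adjusted p = 0.0087). Glud1 lost its call without CD + Veh replicate 1 (adjusted p = 0.0335, log2 fold change under 0.38 in size). Agxt lost its call when 1 of CD + Veh replicates 1 and 4 or CD + PE replicate 3 was left out (adjusted p from 0.0659 to 0.0771). Prodh lost its call when 1 of CD + Veh replicates 2 and 4 or CD + PE replicates 2, 3 and 5 was left out (adjusted p from 0.0581 to 0.132). Gls2 lost its call when 1 of CD + Veh replicates 2, 3 and 4 or CD + PE replicates 1, 2, 3 and 5 was left out (adjusted p from 0.0597 to 0.142).

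Among 26 pericentral hepatocyte genes 5 rose and 0 fell, 12 were higher and 1 lower at an unadjusted p below 0.05, with a median of 0.24. Among 26 periportal genes 2 fell and 0 rose, 8 were lower and 0 higher at an unadjusted p below 0.05, with a median of -0.11. Aldh1a1, a retinaldehyde dehydrogenase, was at 342, 597, 364 and 506 CPM in CD + Veh and 879, 773, 948, 662 and 840.2 CPM in CD + PE. Aldh1a1 rose by 0.86 on the log2 scale (SE 0.18, adjusted p = 0.011). Lgr5, the receptor for R-spondins that marks cells next to the central vein, was at 5.47, 4.44, 3.42 and 4.98 CPM in CD + Veh and 9.8, 7.28, 7.5, 8.03 and 6.52 CPM in CD + PE. Lgr5 rose by 0.77 on the log2 scale (SE 0.173, adjusted p = 0.0166). Lgr5 lost its call without CD + Veh replicate 3 (adjusted p = 0.0518). Aldh3a2 and Lect2 were the other pericentral genes that rose. Aldh3a2 lost its call when 1 of CD + Veh replicates 1 and 3 or CD + PE replicate 3 was left out (adjusted p from 0.0622 to 0.0771). Lect2 lost its call when 1 of CD + Veh replicates 1, 3 and 4 or CD + PE replicates 1, 2, 3 and 4 was left out (adjusted p from 0.0563 to 0.138). Cyp2e1, the most abundant pericentral gene of the list per length, was at 3208, 4546, 3069 and 4440.2 CPM in CD + Veh and 6270.0, 3862, 6636, 6101 and 5767 CPM in CD + PE and missed the threshold (log2 fold change 0.59, adjusted p = 0.0505). Without CD + PE replicates 1 and 2, 5 pericentral genes were called higher and 0 periportal genes were called.

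In the list of the growth hormone and IGF axis 2 of 20 members rose and 0 fell, with a median of 0.16. Prlr, the prolactin receptor (chromosome 15, 10177258 to 10349959), was at 26.4, 43.3, 34.2 and 38.3 CPM in CD + Veh and 72, 81.8, 107, 62.8 and 84.8 CPM in CD + PE. Prlr rose by 1.20 on the log2 scale (SE 0.198, adjusted p = 0.00249). Stat5a, a transcription factor downstream of the growth hormone and prolactin receptors, was at 10.1, 7.95, 11.2 and 9.63 CPM in CD + Veh and 13.3, 13.9, 18.4, 14.4 and 15.8 CPM in CD + PE. Stat5a rose by 0.64 on the log2 scale (SE 0.142, adjusted p = 0.016). Stat5a lost its call when 1 of CD + Veh replicate 2 or CD + PE replicate 3 was left out (adjusted p from 0.051 to 0.0586). Of 28 male-biased liver genes Elovl3, a fatty acid elongase, was the 1 that rose, near the 2.92% of all genes called. It was at 67.6, 107, 124 and 45.1 CPM in CD + Veh and 194, 349.8, 189, 165 and 137 CPM in CD + PE. Elovl3 rose by 1.26 on the log2 scale (SE 0.307, adjusted p = 0.0261). CD + PE replicate 2 was far above the rest. Elovl3 lost its call when 1 of CD + Veh replicates 1 and 4 or CD + PE replicate 2 was left out (adjusted p from 0.0554 to 0.0905). Of 15 female-biased genes Prlr was the 1 called, with a median of 0.19.

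Clock genes were called in both directions. Bmal1, an activator of the circadian loop, was at 2.61, 2.65, 4.76 and 2.22 CPM in CD + Veh and 6.14, 20.9, 7.15, 6.33 and 5.73 CPM in CD + PE. Bmal1 rose by 1.60 on the log2 scale (SE 0.4, adjusted p = 0.0308). Bmal1 lost its call when 1 of CD + Veh replicates 1, 2 and 4 or CD + PE replicate 2 was left out (adjusted p from 0.0615 to 0.102). Its partner Clock was at 26.9, 27.5, 38.1 and 21.1 CPM in CD + Veh and 47.9, 52.2, 44.3, 38.6 and 36.8 CPM in CD + PE. Clock rose by 0.63 on the log2 scale (SE 0.139, adjusted p = 0.0152). Clock lost its call when 1 of CD + Veh replicates 1 and 4 was left out (adjusted p from 0.0506 to 0.0556). Bhlhe40, a repressor of the loop, was at 269.9, 191, 219 and 189 CPM in CD + Veh and 117, 123, 116, 157 and 155 CPM in CD + PE. Bhlhe40 fell by 0.70 on the log2 scale (SE 0.175, adjusted p = 0.0302). Bhlhe40 lost its call when 1 of CD + Veh replicates 1, 3 and 4 or CD + PE replicates 1, 2 and 3 was left out (adjusted p from 0.0509 to 0.126). Of 23 clock genes 2 rose and 1 fell, 5 were higher and 7 lower at an unadjusted p below 0.05, and the median was -0.17. Without CD + PE replicates 1 and 2, 0 were called and the median was -0.05. A score over 11 clock genes, defined here, was -3.65, -3.68, -3.07 and -4.55 in CD + Veh and -2.13, 0.88, -1.37, -2.66 and -2.92 in CD + PE (exact permutation p = 0.0238, adjusted p = 0.0357 over the 6 library measures). With this score as a covariate 242 genes were called, 149 of them among the 397. Of the 114 named called genes 50 kept their call, Lss, Dhcr7, Pmvk, G6pdx, Crot and Ephx1 among them. Nsdhl, Khk, Pfkfb1, Scap, Gclc and Aox1, called whichever library was left out, lost theirs with the score (adjusted p from 0.0506 to 0.165). The part of collection time in the other differences was not tested.

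Genes of the respiratory chain were called in both directions. Of 77 nuclear genes of the respiratory chain 5 fell and 1 rose, 27 were lower and 5 higher at an unadjusted p below 0.05 and the median was -0.09. The number called ran from 2 to 6 over the fits that left out 1 library. Ndufa13, a subunit of complex I, was at 146, 162, 166 and 161 CPM in CD + Veh and 118, 96.7, 119.9, 99.3 and 118 CPM in CD + PE. Ndufa13 fell by 0.53 on the log2 scale (SE 0.0908, adjusted p = 0.00317). Ndufa5, Sdhc, Cox5a and Cox6b1 also fell, with log2 fold changes of -0.43, -0.38, -0.39 and -0.44, and each lost its call in at least 1 of the 9 fits. Ndufa5 lost its call without CD + Veh replicate 4 (adjusted p = 0.0208, log2 fold change under 0.38 in size). Sdhc lost its call when 1 of CD + Veh replicates 2 and 4 or CD + PE replicate 2 was left out (adjusted p from 0.0111 to 0.0291, log2 fold change under 0.38 in size). Cox5a lost its call when 1 of CD + Veh replicate 3 or CD + PE replicates 1, 2 and 3 was left out (adjusted p from 0.0323 to 0.046, log2 fold change under 0.38 in size). Cox6b1 lost its call when 1 of CD + Veh replicate 4 or CD + PE replicate 2 was left out (adjusted p from 0.0321 to 0.066, under 0.38 in size where p was below 0.05). Ndufb4, a subunit of complex I, was the 1 that rose. Ndufb4 rose by 0.51 on the log2 scale (SE 0.127, adjusted p = 0.0307), and was at 0.06 with the division of library numbers as a covariate. Ndufb4 lost its call when 1 of CD + Veh replicates 1, 2 and 4 or CD + PE replicates 1, 3 and 5 was left out (adjusted p from 0.0555 to 0.0905). Of 13 mitochondrially encoded proteins mt-Nd1 and mt-Nd5 rose and mt-Nd3 fell, with a median of 0.42. Of the 13, 11 had a log2 fold change above 0, 10 were higher and 2 lower at an unadjusted p below 0.05, and DESeq2 called 7 higher and 1 lower. mt-Nd5 was at 5311, 7067, 6680.4 and 6253 CPM in CD + Veh and 11486, 8309, 9575, 9536 and 7398 CPM in CD + PE. mt-Nd5 rose by 0.55 on the log2 scale (SE 0.144, adjusted p = 0.0391). mt-Nd5 lost its call when 1 of CD + Veh replicates 1, 2, 3 and 4 or CD + PE replicates 1, 3 and 4 was left out (adjusted p from 0.0514 to 0.12). mt-Nd1 rose by 0.39 on the log2 scale (SE 0.1, adjusted p = 0.0365). mt-Nd1 lost its call when 1 of CD + Veh replicates 1, 2 and 4 or CD + PE replicates 1, 3 and 4 was left out (adjusted p from 0.051 to 0.107). mt-Nd3 was at 262, 328, 346 and 341 CPM in CD + Veh and 206, 158, 213, 218 and 206 CPM in CD + PE. mt-Nd3 fell by 0.67 on the log2 scale (SE 0.152, adjusted p = 0.0169). mt-Nd3 lost its call without CD + Veh replicate 4 (adjusted p = 0.0589). With an offset for GC content and length, added after the data were seen, all 3 lost their calls: mt-Nd3 had a log2 fold change of -0.34 (adjusted p = 0.0912), mt-Nd5 0.37 (adjusted p = 0.114) and mt-Nd1 0.35 (adjusted p = 0.0303). Under the offset 3 other members of the 13 were called higher, mt-Co2, mt-Nd4l and mt-Nd6, named after their values were seen, and the median was 0.37. With the division of library numbers as a covariate mt-Nd3 was at -0.05 (adjusted p = 0.943), mt-Nd5 at 0.39 (adjusted p = 0.56) and mt-Nd1 at 0.33 (adjusted p = 0.461). The mitochondrial share of counts given above is summed over genes that include mt-Nd1 and mt-Nd5, so it is no separate observation. The cause of its rise was not tested.

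Processed pseudogenes, copies of messenger RNAs in the genome, were a large group among the genes that fell. Of 223 tested, 42 fell and 1 rose, with a median of -0.74, and without them 189 genes fell and 165 rose. Rps6-ps4, Rps12-ps3 and Gm12338 were also at 0 in MD + Veh replicates 4 and 5, which had no PE. With the division of library numbers as a covariate Rps6-ps4 was at -0.43 in place of -13.4 and Rps12-ps3 at -0.58 in place of -11.8. Gm12338 was then at -0.20 and Rps16-ps2 at -0.25, while Rpl10a-ps1 was at -9.74 and Gm11518 at -7.68 (adjusted p = 0.175 and 0.116). Among genes with a mean log2 CPM over 3, the 79 with a longest transcript under 800 bases had a median of -0.12, with 17 lower and 1 higher, and the 5952 with one over 3200 bases had a median of 0.01, with 111 lower and 87 higher. Of 81 cytosolic ribosomal protein genes 4 fell and 2 rose, with a median of -0.10, and the number called ran from 2 to 7 over the fits that left out 1 library. Rpl3, Rpl36a, Rps24 and Rpl37a fell, and Rpl10a and Rpl27 rose. Rpl3 was at 278, 256, 267 and 299 CPM in CD + Veh and 197, 195, 182, 216 and 202 CPM in CD + PE. Rpl3 fell by 0.47 on the log2 scale (SE 0.0695, adjusted p = 0.00116). Rpl36a lost its call without CD + Veh replicate 4 (adjusted p = 0.042, log2 fold change under 0.38 in size). Rps24 lost its call when 1 of CD + Veh replicates 1 and 4 or CD + PE replicates 1 and 2 was left out (adjusted p from 0.0269 to 0.0569, under 0.38 in size where p was below 0.05). Rpl37a lost its call when 1 of CD + Veh replicates 1 and 4 was left out (adjusted p from 0.0532 to 0.0562). Rpl10a was at 78.2, 74.9, 90.9 and 87.8 CPM in CD + Veh and 115, 113, 115, 119 and 125 CPM in CD + PE. Rpl10a rose by 0.50 on the log2 scale (SE 0.123, adjusted p = 0.027). Rpl10a lost its call when 1 of CD + Veh replicates 1, 2 and 4 or CD + PE replicates 3 and 5 was left out (adjusted p from 0.0521 to 0.0868). Reads of Rpl10a can be shared with Rpl10a-ps1, which was above 0 in every CD + Veh library and at 0 in every CD + PE library. The summed level of gene and pseudogene, a pair picked with its values known, was 130 ± 4.51 CPM over 4 CD + Veh libraries (SD) and 117 ± 4.87 CPM over 5 CD + PE libraries (SD). Rpl10a alone was 82.9 ± 7.61 and 117 ± 4.87 CPM. Of 2 other such pairs, Rps6 alone was 192 ± 12.9 and 259 ± 20.05 CPM (adjusted p = 0.079) and its sum with Rps6-ps4 292 ± 16.1 and 259 ± 20.05 CPM. Rps12 alone was 138 ± 17.4 and 121 ± 13.5 CPM (adjusted p = 0.385) and its sum with Rps12-ps3 171 ± 21.3 and 121 ± 13.5 CPM. The rise of Rpl10a is uncertain where reads are shared with its copy, and the part of such sharing was not tested. With the division of library numbers as a covariate Rpl10a had a log2 fold change of -0.04, Rpl27 of -0.05 and Rpl37a of -0.08. Rpl27 lost its call when 1 of CD + Veh replicates 1 and 2 was left out (adjusted p from 0.0593 to 0.0665). With the offset for GC content and length Akr1c6, Gapdh, Gls2, Ndufa5, Neat1, Sdhc, Rpl36a, Slc6a9, Tkfc and Ugt2b34 also lost their calls. Akr1c6 (0.36), Gapdh (-0.37), Ugt2b34 (0.37), Sdhc (-0.36) and Ndufa5 (-0.27) kept an adjusted p below 0.05 with a log2 fold change under 0.38 in size. Gls2 was at -0.39 and Neat1 at 0.54 (adjusted p = 0.0529 and 0.101). Rpl36a was at -0.26 and Slc6a9 at -0.34 (adjusted p = 0.0815 and 0.0962).

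Other lists of stress and inflammation, beside the antioxidant list, had few calls. Among 34 genes of endoplasmic reticulum stress, 24 of heat shock, 23 of the p53 and DNA damage response, 28 acute phase proteins, 46 of complement and coagulation, 25 of antigen presentation, 39 chemokines, cytokines and receptors, 34 of the proteasome and 43 of the lysosome, 0 were called by edgeR. At an unadjusted p below 0.05 these lists held, in that order, 4, 1, 6, 2, 6, 2, 5, 9 and 16 genes, DESeq2 called 0, 0, 0, 1, 0, 1, 0, 0 and 2 of them, and the medians ran from -0.05 to 0.16. Over all genes 17.5% had such a p. The p53, proteasome and lysosome lists were above that share and the other 6 below it, and the lysosome genes were 10 higher and 6 lower. Of 25 immediate early genes Klf10 was the 1 called, lower in CD + PE, again near the 2.92% of all genes. Klf10 fell by 1.31 on the log2 scale (SE 0.316, adjusted p = 0.0252). Klf10 lost its call when 1 of CD + Veh replicates 1, 3 and 4 or CD + PE replicates 2 and 3 was left out (adjusted p from 0.0515 to 0.12). Of 34 cell cycle genes Rrm2, a subunit of ribonucleotide reductase, was the 1 called, lower in CD + PE, which is near that share too. Rrm2 fell by 0.65 on the log2 scale (SE 0.171, adjusted p = 0.0389). Rrm2 lost its call when 1 of CD + Veh replicates 1 and 4 or CD + PE replicates 1, 3, 4 and 5 was left out (adjusted p from 0.07 to 0.175).

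Interferon-stimulated genes had a median of 0.36, with 42 of 48 above 0, but 1 was called. Cmpk2, a mitochondrial nucleotide kinase induced by interferon, was at 4.73, 4.23, 3.62 and 3.3 CPM in CD + Veh and 5.98, 16.8, 6.09, 6.13 and 7.21 CPM in CD + PE. Cmpk2 rose by 1.09 on the log2 scale (SE 0.301, adjusted p = 0.0496). Cmpk2 lost its call when 1 of CD + Veh replicates 1, 2, 3 and 4 or CD + PE replicates 2, 3 and 5 was left out (adjusted p from 0.0565 to 0.141). The median was 0.06 without CD + PE replicates 1 and 2, with 0 called. Among other lists in which CD + PE replicate 2 had the highest summed level, the medians of some moved as well. The median of 14 Kupffer cell markers was 0.26 with all libraries and -0.52 without the pair, that of antigen presentation 0.05 and -0.34, that of chemokines and cytokines 0.16 and -0.03, and that of the cell cycle 0.12 and -0.34. Others moved little: bile acid synthesis and transport 0.18 and 0.18, the proteasome -0.04 and -0.05, and RNA processing 0.10 and 0.12.

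Markers of other cell types were examined because a liver piece holds more than hepatocytes. The summed level of 14 Kupffer cell markers, genes of the resident macrophages, was 487, 310, 391 and 440 CPM in CD + Veh and 329, 1376, 328, 279 and 242 CPM in CD + PE. C1qa, the most abundant of them per length, was at 44.8, 28, 45.6 and 46.2 CPM in CD + Veh and 25.4, 101, 28.5, 25.7 and 23.7 CPM in CD + PE, so that replicate 2 lay above every other library and the other 4 CD + PE libraries lay near the lowest CD + Veh library. Of these 14 markers 0 were called by edgeR and 0 by DESeq2. Of 12 markers of infiltrating or lipid-associated macrophages Fabp5, a fatty acid binding protein, was the 1 called. It was at 403, 229, 265 and 418 CPM in CD + Veh and 59.6, 119, 40.1, 83.9 and 99.98 CPM in CD + PE. Fabp5 fell by 2.03 on the log2 scale (SE 0.305, adjusted p = 0.00126). The median of these 12 markers was -0.04, with 6 above 0 and 6 below, and only Fabp5 had an unadjusted p below 0.05. The lists for neutrophils, T and NK cells, B and plasma cells, stellate cells, sinusoidal endothelium, bile ducts, skeletal muscle, intestine, exocrine pancreas, adipocytes, red blood cells and hepatocytes had 0 members called by edgeR and 0 to 3 each at an unadjusted p below 0.05. DESeq2 called 1 hepatocyte marker and 0 members of the other lists. Few members of some lists passed the filter on low counts, so 0 calls say little about them. Those tested were 1 of 11 neutrophil, 1 of 15 exocrine pancreas, 3 of 14 intestine and 5 of 15 T and NK cell markers. Levels of neutrophil markers were 1.43 to 2.1 CPM in sum in CD + Veh and 1.03 to 4.34 CPM in CD + PE, with Ly6g, Ngp and Camp at 0 in all 9 libraries. The part of these markers in the differences above was not tested.

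Without CD + PE replicates 1 and 2, the libraries high in muscle and macrophage markers, several lists had fewer calls and some had more. The mitochondrially encoded proteins, conjugation enzymes, periportal genes, male-biased genes and cell cycle genes then had 0 members called. The nuclear genes of the respiratory chain had 2 lower and 0 higher, cytosolic ribosomal proteins 2 lower and 1 higher, and gluconeogenesis and glycogen 1 lower. Solute carriers had 1 higher and 0 lower, and bile acid synthesis and transport 1 higher. Glycolysis and fructose use had 8 lower and 1 higher, and the antioxidant response and pericentral genes had 5 higher each. Cytochrome P450 families 1 to 3 had 5 higher and 3 lower in place of 3 and 3, and RNA processing 2 higher in place of 1. The p53 and lysosome lists had 1 higher each and acute phase proteins 1 lower, all in place of 0.

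Among genes named for the size of their change, the largest falls were genes at 0 in every CD + PE library. These were the pseudogenes Rps6-ps4, Rpl10a-ps1, Rps12-ps3, Gm11518 and Gm12338 and the protein-coding gene H2ac19 (log2 fold changes from -13.4 to -9.64). H2ac19 and Gm12338 lost their calls in some fits that left out 1 library. Several other genes named by this rule stood outside the pathways above. Chrna4, a subunit of nicotinic acetylcholine receptors (chromosome 2, 180660173 to 180685339), was at 53.2, 115, 48.1 and 151 CPM in CD + Veh and 10.8, 23.7, 6.53, 12 and 12.1 CPM in CD + PE. Chrna4 fell by 2.82 on the log2 scale (SE 0.407, adjusted p = 0.00107). Fam89a was at 1.37, 1.29, 1.54 and 1.41 CPM in CD + Veh and 7.14, 5.17, 6.8, 3.72 and 3.16 CPM in CD + PE. Fam89a rose by 1.89 on the log2 scale (SE 0.343, adjusted p = 0.00512). Gm4952 was at 27.8, 26.4, 41.8 and 35.2 CPM in CD + Veh and 89.2, 65.3, 109, 54.9 and 94.1 CPM in CD + PE. Gm4952 rose by 1.33 on the log2 scale (SE 0.211, adjusted p = 0.00176). In these 3 genes the groups did not overlap, as the rule that named them required, and the call held whichever library was left out. With the clock score as a covariate Fam89a lost its call (log2 fold change 1.22, adjusted p = 0.0862), and Chrna4 and Gm4952 kept theirs (adjusted p = 0.0219 and 0.0251). Of 763 long noncoding RNAs 22 rose and 9 fell, where 1.22% of all genes rose and 1.7% fell. Their median was 0.14, and Gm47761, Gm50136, Gm36041 and Gm3734 were among the largest rises. Gm47761 rose by 1.96 on the log2 scale (SE 0.431, adjusted p = 0.015), and Gm50136 rose by 1.91 on the log2 scale (SE 0.287, adjusted p = 0.00126). Gm47761 lost its call without CD + Veh replicate 1 (adjusted p = 0.0556). Gm36041 rose by 1.48 on the log2 scale (SE 0.277, adjusted p = 0.00578), and Gm3734 rose by 1.18 on the log2 scale (SE 0.234, adjusted p = 0.00737). Neat1, the scaffold RNA of nuclear paraspeckles, was at 209, 323, 213 and 224 CPM in CD + Veh and 367, 373, 335, 453 and 332 CPM in CD + PE. Neat1 rose by 0.62 on the log2 scale (SE 0.17, adjusted p = 0.0471). Neat1 lost its call when 1 of CD + Veh replicates 1, 3 and 4 or CD + PE replicates 1, 2, 3, 4 and 5 was left out (adjusted p from 0.0519 to 0.141). Of 37 solute carriers and efflux pumps Slc13a3, a dicarboxylate carrier, rose and Slc3a1, a subunit of the cystine transporter, and Slc6a9, a glycine transporter, fell. Slc13a3 lost its call when 1 of CD + Veh replicates 1, 3 and 4 or CD + PE replicates 1 and 2 was left out (adjusted p from 0.0605 to 0.108). Slc3a1 lost its call when 1 of CD + Veh replicates 1 and 3 or CD + PE replicates 1, 3 and 5 was left out (adjusted p from 0.051 to 0.0929). Slc6a9 lost its call when 1 of CD + Veh replicates 1, 3 and 4 or CD + PE replicates 1, 2 and 3 was left out (adjusted p from 0.0769 to 0.17).

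The design also asks whether PE was followed by the same difference on MD. The diets have separate controls, but library number is partly tied to PE on MD as well. The division of library numbers runs through MD + Veh, and all MD + PE libraries come after it. Of the 397 genes called on CD, 336 had the same sign on MD and 54 were also called there. Rps6-ps4 and Gm11518 were among the 54, with log2 fold changes of -12.2 and -10.8 on MD. In the MD + Veh libraries after the division, Rps6-ps4 was at 0 and Gm11518 had 42 and 0 counts. The part of library number in these shared signs and calls was not tested. The genes that rose had a median of 0.62 on CD and 0.15 on MD, and those that fell -0.68 and -0.36, and the genes were chosen for their CD values. Tested directly, the difference between diets was past the threshold in 1 gene of 13597 (0.00735%) by edgeR and in 85 by DESeq2, with 1193 genes at an unadjusted p below 0.05, 199 of them among the 397. The 1 gene was Uck1, a uridine and cytidine kinase, named with its values known. It was at 19.5, 24.4, 22.8 and 22.2 CPM in CD + Veh and 32.7, 35.7, 42.1, 30.5 and 31.8 CPM in CD + PE. Uck1 rose by 0.64 on the log2 scale (SE 0.0991, adjusted p = 0.00164) on CD, had a log2 fold change of -0.28 on MD and differed between diets by -0.91 (SE 0.134, adjusted p = 0.024). No gene was past this test by edgeR without CD + Veh replicate 1, CD + Veh replicate 4 or CD + PE replicate 2. Sterol genes had a median of -0.75 on CD and -0.82 on MD, and 3 of 20 had an unadjusted interaction p below 0.05. Ephx1 had log2 fold changes of 0.89 and 0.21 (interaction unadjusted p = 2.1e-05, adjusted p = 0.142), Oat 0.99 and -0.33 (interaction unadjusted p = 7.3e-05, adjusted p = 0.156), and Elovl3 1.26 and -0.63 (interaction unadjusted p = 0.000211, adjusted p = 0.216). These 3 did not pass the test of the difference.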

How the data were processed

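Liver RNA was poly(A) selected and sequenced as paired ends, 1 library per mouse. The authors trimmed reads with fastp 0.23.4 and quantified them with Salmon 1.10.3 on the GENCODE transcriptome of GRCm39, and the deposited values are estimated counts summed to genes with tximport, held as whole numbers and not normalized. Groups were taken from the labels. Counts of all 19 libraries were fitted in R 4.3.3 with edgeR 4.0.16 (TMM, filterByExpr by group, 1 coefficient per group, quasi-likelihood F test), contrast CD + PE minus CD + Veh. The limits of the calls (Benjamini-Hochberg adjusted p below 0.05, log2 fold change of at least 0.38) follow the study's methods. SE is the size of the log2 fold change over the square root of F. DESeq2 1.42.0 was an alternative, beside other filters and scalings, covariates and libraries left out. Library measures were compared by exact permutation tests. Depth of 10398820 to 15456729 counts makes 1 CPM 10.4 to 15.5 counts. No 2 libraries of a group were copies: squared differences were at least 12.6 times counting error.

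Named genes were, beside the most abundant gene of each cell type list, the 15 largest rises and 15 largest falls among called genes whose libraries did not overlap and whose higher group averaged 5 CPM or more, and up to 6 called members per list with the smallest p, or the members with the smallest p up to 2 where fewer were called. The members, the 54 lists and the rule were chosen with earlier results of these data known. Positions are from GENCODE vM39. The fitting was tested on simulated data. Genes of lipogenesis and nuclear receptors were left out of the text, apart from names in the plot of all genes. A few list members are not reported here.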

Additional observations from a re-analysis of the deposited data

Results flagged for a closer look

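Libraries far from the rest of their group are given as values, and chance alone would mark about 1 group in 20. Of 210 groups of values tested, 17 were marked. CD + PE replicate 2 was the highest of its group for Marco (256 CPM, against 2.57 to 19.9 CPM in the other 4), C1qa (101 CPM, against 23.7 to 28.5), Bmal1 (20.9 CPM, against 5.73 to 7.15), Cmpk2 (16.8 CPM, against 5.98 to 7.21), Elovl3 (349.8 CPM, against 137 to 194), G6pdx (16.8 CPM, against 3.72 to 6.22) and Pgd (73.7 CPM, against 41.5 to 48.1). It was the lowest for Agxt (189.7 CPM, against 245 to 266), Sdhc (99 CPM, against 112 to 117), Rpl37a (22.8 CPM, against 30.6 to 32) and mt-Nd3 (158 CPM, against 206 to 218). CD + PE replicate 1 was the highest for the summed skeletal muscle markers (544 CPM, against 5.33 to 14.9 CPM).

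In CD + Veh, replicate 2 was the highest for the muscle markers (64.3 CPM, against 5.21 to 6.04 CPM) and for Neat1 (323 CPM, against 209 to 224) and the lowest for C1qa (28 CPM, against 44.8 to 46.2). Replicate 3 was the highest for Bmal1 (4.76 CPM, against 2.22 to 2.65) and replicate 1 the lowest for Cox6b1 (86.2 CPM, against 103 to 106). Uck1 was marked because its PE difference differed between the diets by -0.91 on the log2 scale in the test of that difference.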

How the results depend on the processing

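Totals of called genes kept within 1.5 times the reported 397 (166 higher, 231 lower) under RLE normalization (394), DESeq2 (523), no filter (300) and a stricter filter (409), the CD libraries fitted alone (289), thinning to equal depth (374), and, added after the data were seen, an offset for GC content and length (398) and CD + PE replicates 1 and 2 left out together (311). The number of higher genes was 108 with no filter. With the clock score as a covariate 242 genes were called, 113 of them lower, and with the division of library numbers 37, 11 of them higher and 26 lower; under that division H2ac19 (0.14), Rpl27 (-0.048) and Rpl10a (-0.038) took the other sign. The causes were not tested. Leaving out 1 library gave 215 to 410 called genes, 77 to 189 higher and 111 to 221 lower, and 0 to 3 genes with an interaction. Interaction calls numbered 85 by DESeq2, 41 with a replicate block and 0 without CD + PE replicates 1 and 2. Same-numbered replicates share only a number: over 4 CD pairs their deviations had a median r of -0.09 and none exceeded 0.1, and over 27 pairs of all groups the median was 0.07, the highest 0.33, and 10 exceeded 0.1. A replicate block gave 419 called genes (165 higher, 254 lower), 337 of them shared. Of the 114 named called genes, 103 kept their call with the block, 100 with the offset, 79 with the CD libraries alone, 50 with the clock score, 9 with the division of library numbers and 64 to 101 with 1 library left out. Depth limits genes with few counts: 3 counts correspond to 0.19 to 0.29 CPM.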
